A study of Mus musculus with 40 samples.

Results

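The core circadian clock of the liver was described through 10 genes, chosen by symbol and found in both count tables: Arntl, Clock, Npas2, Cry1, Cry2, Per1, Per2, Per3, Nr1d1 and Nr1d2. These are 10 of the 40239 genes that the tables share, and 10 of 10 passed the low-count filter that left 12942 genes for testing. The RNA-Seq libraries came from whole livers of 40 male mice, 5 in each of 8 groups, all 5 months old at the end of feeding. Wildtype (WT) mice were C57BL6/J. Knockout (KO) mice lacked PPARγ in the liver through a floxed gene and a Cre recombinase driven by the albumin promoter. Liver cells in which the Cre was never active keep the receptor, and the WT mice carry neither allele. Within each genotype, mice received a control diet, the control diet with pioglitazone (Pio), a high-fat diet (HFD) or the HFD with Pio. Pio is a thiazolidinedione that activates PPARγ. All groups ate ad libitum. The study describes its blood samples as drawn in the morning from fed mice. The hour at which each liver was taken is not given in the sources used here. Each value is therefore 1 reading per mouse at an unstated hour. Mouse numbers in the sample titles run in blocks by group, and whether the hour differed between groups is unknown. A difference of hour between groups could not be told apart from an effect of diet, Pio or genotype.

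The circadian clock is a loop of transcription factors that repress their own synthesis about once a day. ARNTL (BMAL1) pairs with CLOCK or with its relative NPAS2 and activates genes through E-box sequences, among them the Per, Cry and Nr1d genes. The PER and CRY proteins then bind and inhibit the activator pair, while NR1D1 and NR1D2 (REV-ERBα and REV-ERBβ) are nuclear receptors that silence Arntl, Npas2 and Cry1 through a monomer element that they share with the activating ROR receptors. In liver, Arntl and Npas2 peak at about the opposite time of day from Per3 and Nr1d1, Clock cycles weakly, and feeding time and glucocorticoids set the phase.

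The following 30-base stretches show where letters that match the loop's response elements lie in short promoter windows of the members. They come from RefSeq windows on GRCm38 that run from 250 bases before to 50 after a transcription start; 13 such windows matched 9 members, all but Per2. Capitals mark the motif, each sequence reads 5′ to 3′ on the strand of the gene, and both strands were searched.
Cry1, E-box CACGTG, chr10:85185097-85185126, minus strand: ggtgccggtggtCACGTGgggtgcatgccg
Per1, E-box CACGTG, chr11:69098771-69098800, plus strand: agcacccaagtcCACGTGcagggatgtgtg
Cry1, E-prime-box CACGTT read as AACGTG, chr10:85185116-85185145, minus strand: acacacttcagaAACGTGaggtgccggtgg
Cry2, E-prime-box CACGTT read as AACGTG, chr2:92434218-92434247, minus strand: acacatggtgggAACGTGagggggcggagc
Nr1d1, E-prime-box CACGTT read as AACGTG, chr11:98775388-98775417, minus strand: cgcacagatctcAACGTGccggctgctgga
Arntl, monomer element TAGGTCA, chr7:113207530-113207559, plus strand: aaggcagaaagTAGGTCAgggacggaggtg
The E-box CACGTG was found in 2 of the 13 member windows, for Cry1 and Per1, and in 7.15% of all 32851 RefSeq windows of that length. The E-prime-box CACGTT was found in 3 of the 13, for Cry1, Cry2 and Nr1d1, and in 4.68% of all windows. The monomer element of the REV-ERB and ROR receptors was searched as TAGGTCA or TGGGTCA. It was found in 1 of the 13 windows, for Arntl among the 9 members with a window, and in 6.45% of all windows. The element in Arntl begins 30 bases after the start base, inside the transcribed 5′ end. The Cry1 E-box begins 60 bases before the start and its E-prime-box 79 bases before it, so the pair lies close together. The Per1 E-box begins 166 bases before the start of its window's transcript. That start lies inside the annotated Per1 gene, which begins upstream at base 69095217 of chromosome 11. Letters in a short window describe the sequence and do not show binding. Elements outside these windows were not searched, so a member without a match here may still carry the element.

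Depth ranged from 15788242 to 49857017 reads assigned to genes in WT livers and from 21542958 to 28334251 in KO livers. The hepatocyte markers Alb, Apoa1, Ttr, Tat and Cps1 summed to between 63700 and 143000 CPM (reads of a gene scaled to its library's total, with TMM factors) in 39 of the 40 livers. One library stood apart: KO Pio mouse 13 had a hepatocyte sum of 31700 CPM, a cholangiocyte marker sum of 70.8 CPM against 9.36 to 35.5 in the other KO livers, and the lowest Clock level of all mice. The results that turn on this mouse are therefore given with and without it. Reads of the whole Pparg gene ran from 5.79 to 14.2 CPM in WT and from 3.01 to 9.90 CPM in KO livers. Those ranges overlap, and a whole-gene count includes reads outside the deleted part and from other cells, so it checks the genotype only weakly. WT and KO mice were deposited in separate tables, so levels were not tested between genotypes; effects within a genotype were. In whole liver, fewer cells of a type and less RNA per cell cannot be told apart.

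Per kilobase of exon, Nr1d1 was the most abundant member and Npas2 the least. The median level of Nr1d1 was 91.1 CPM per kb in the 20 WT livers and 44.7 in the 20 KO livers. Per1 followed in WT with a median of 13.9 CPM per kb, then Nr1d2 with 7.30, Per2 with 6.14, Cry2 with 5.67, Clock with 4.43, Per3 with 2.82, Cry1 with 2.09, Arntl with 1.59 and Npas2 with 0.598. In KO livers Nr1d2, at a median of 12.2 CPM per kb, stood above Per1 at 10.1, and Cry1, at 2.24, stood above Per3 at 2.10. Neighbours in this order overlapped across mice along its whole length, Nr1d1 and Per1 in WT mice and Arntl and Npas2 included. Npas2 rested on the fewest reads, from 17 to 487 per library, whereas Nr1d1 had 1188 to 15267.

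Some members varied far more between mice than others did. Over the 20 WT livers of all WT groups, Npas2 spanned a 19.2-fold range and Per3 an 8.47-fold range, against 1.84-fold for Clock and 2.21-fold for Cry2. Those ranges include differences between groups. Within groups, the SD of log2 CPM in WT mice was 0.87 for Npas2, 0.70 for Per3, 0.62 for Per1, 0.55 for Nr1d1 and 0.54 for Per2, beside a median of 0.32 over all tested genes. Clock, Cry2 and Nr1d2 each had a within-group SD of 0.26 in WT mice, below that median. Among the 19 KO mice other than mouse 13, Per3 had an SD of 0.69, Npas2 of 0.66 and Arntl of 0.60, beside a median of 0.19 over all genes. The wide spread of Npas2 and Per3 appeared in both genotypes, whereas Arntl, with an SD of 0.35 in WT mice, was near the median there and spread widely in KO mice.

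**Figure D1:**
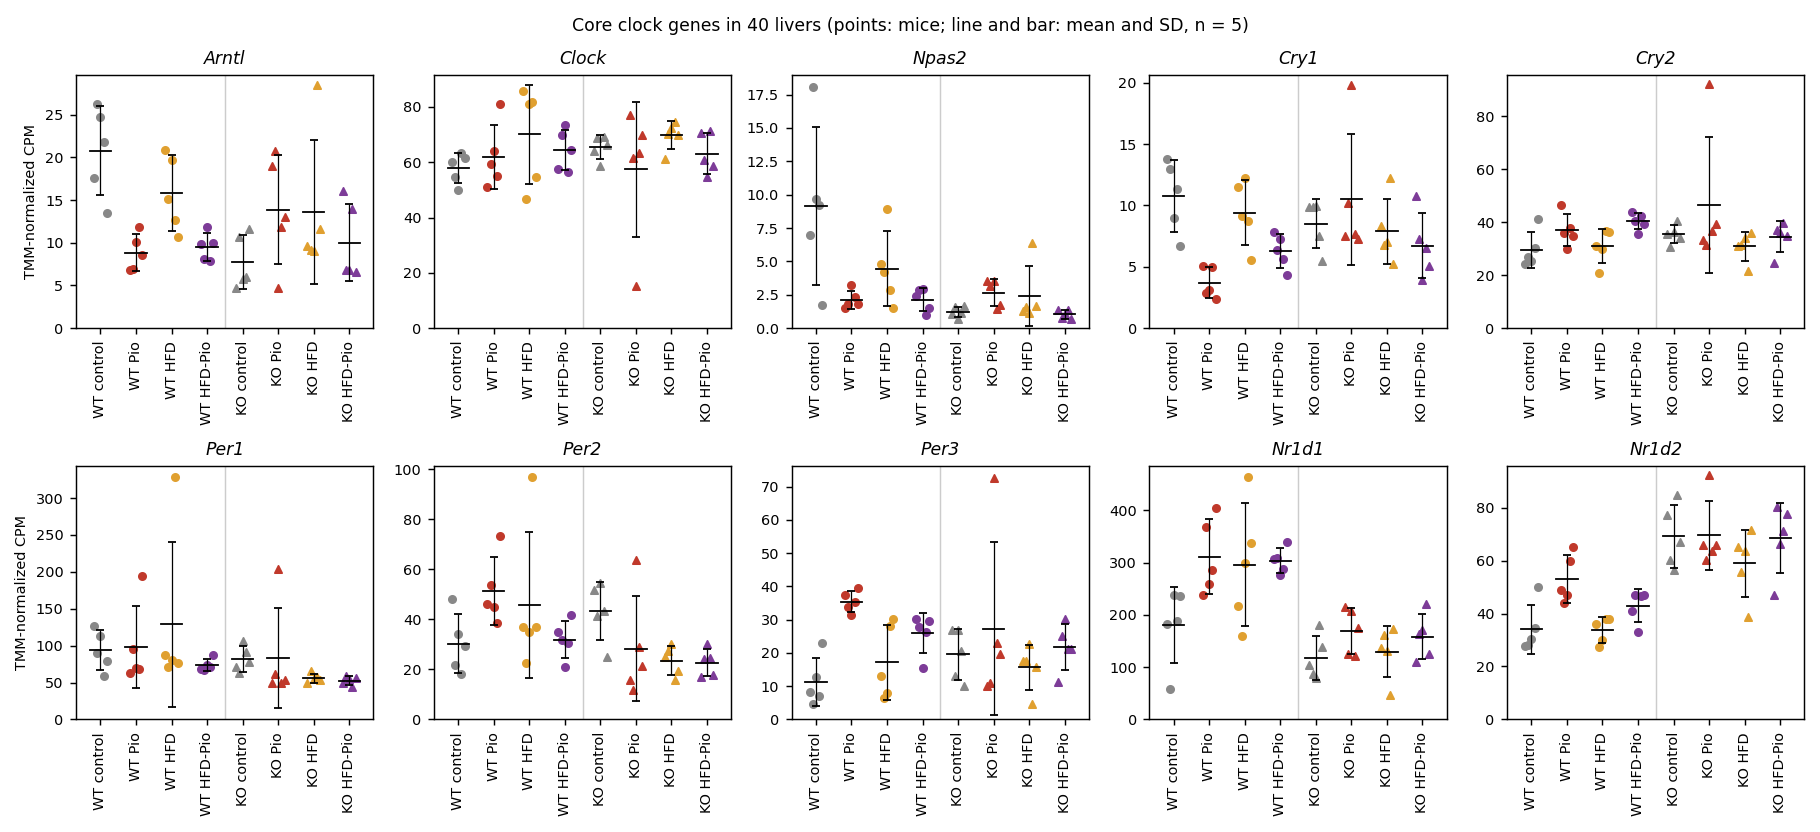
TMM-normalized CPM (y axis, from 0) of each of the 10 clock genes in the 8 groups (x axis), with 1 point per mouse (circles WT, triangles KO) and the mean and SD over 5 mice as a line and bar. In WT livers Arntl, Npas2 and Cry1 had lower means and Per3 a higher mean with Pio than with control diet; the lone points in the KO Pio panels at 15.3 (Clock), 92.2 (Cry2) and 204 (Per1) are mouse 13.

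Pio on the control diet was the comparison in which the WT clock genes differed. With edgeR's quasi-likelihood test and Benjamini-Hochberg adjustment, 5 of the 10 members passed at an adjusted p no higher than 0.05 (called, in what follows) and 7 had an unadjusted p under 0.05, beside 3.91% of all 12942 genes called. Arntl, Npas2 and Cry1 fell, beside 1.47% of all genes called lower, and Per3 and Nr1d2 rose, beside 2.44% called higher. The median log2 fold change of the 10 members was 0.21 and that of all genes -0.022.

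Among the activators, Arntl was at 17.6, 26.2, 24.7, 21.8 and 13.5 CPM in the 5 WT control mice and at 6.76, 6.87, 10.1, 11.9 and 8.60 CPM in the 5 WT Pio mice. Every Pio mouse lay below every control mouse. Mean Arntl fell from 20.8 ± 5.22 to 8.86 ± 2.21 CPM (SD, n = 5 each) (log2 fold change -1.23, SE 0.34, adjusted p = 0.0311), and the exact permutation p of 0.00794 is the smallest that 5 against 5 mice allow. Npas2, the partner of ARNTL that can replace CLOCK, was at 6.95, 18.1, 9.67, 9.23 and 1.71 CPM in control mice and at 1.52, 1.78, 3.23, 2.32 and 1.78 CPM with Pio. Control mouse 832 was the highest, and control mouse 835 lay among the Pio mice, so the groups overlapped. The means were 9.14 ± 5.94 and 2.13 ± 0.684 CPM (log2 fold change -2.10, SE 0.47, adjusted p = 0.00829; exact permutation p = 0.0397). Clock, the third activator, was not called, at 57.9 ± 5.55 CPM in control and 62.0 ± 11.6 CPM in Pio mice.

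Among the inhibitors of the activator pair, Cry1 had the smallest adjusted p. Its level was 13.8, 13.0, 9.00, 11.3 and 6.72 CPM in control mice and 5.06, 2.84, 3.10, 5.01 and 2.39 CPM in Pio mice, with no overlap. The mean fell from 10.7 ± 2.90 to 3.68 ± 1.26 CPM (log2 fold change -1.54, SE 0.30, adjusted p = 0.00171; exact permutation p = 0.00794). Cry2, its paralog, went from 29.6 ± 6.91 to 37.0 ± 6.03 CPM and was not called. Per3 rose in every Pio mouse above every control mouse: control livers had 8.37, 4.66, 12.7, 7.09 and 22.9 CPM, and Pio livers 37.3, 33.9, 31.5, 35.2 and 39.4 CPM. The means were 11.1 ± 7.20 and 35.5 ± 3.08 CPM (log2 fold change 1.67, SE 0.47, adjusted p = 0.0341; exact permutation p = 0.00794). Per2 was at 30.3 ± 11.8 CPM in control and 51.3 ± 13.5 CPM in Pio mice (log2 fold change 0.76, not called, adjusted p = 0.232), and Per1 was at 93.7 ± 26.5 and 98.5 ± 55.2 CPM.

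The REV-ERB repressors were both higher on average with Pio, and 1 of the 2 was called. Nr1d2 was at 27.7, 28.1, 30.3, 34.5 and 49.9 CPM in control mice and at 48.9, 43.9, 46.9, 59.8 and 65.0 CPM in Pio mice. Only control mouse 835 reached into the Pio range. The mean rose from 34.1 ± 9.22 to 52.9 ± 9.02 CPM (log2 fold change 0.63, SE 0.18, adjusted p = 0.0332; exact permutation p = 0.0317). Nr1d1 was at 182, 57.7, 238, 188 and 236 CPM in control and 238, 368, 259, 285 and 405 CPM in Pio mice. Its log2 fold change of 0.79 was not called (SE 0.31, adjusted p = 0.155), and 57.7 CPM in control mouse 832 was the lowest value of either group. Exons of Nr1d1 share 263 bases with Thra on the opposite strand, those of Cry2 share 295 with D930015M05Rik and those of Arntl share 33 with Gm45355; the strand setting of the counting is not given in the sources used here, so reads from those stretches are uncertain.

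Read as a ratio of CPM, Per3 over Arntl put the WT control and Pio mice on separate ground. The ratio was 0.475, 0.178, 0.513, 0.325 and 1.70 in control mice and 5.52, 4.93, 3.10, 2.95 and 4.59 in Pio mice. WT HFD mice ran from 0.410 to 2.80 and WT HFD-Pio mice from 1.29 to 3.44. In KO mice the ratio ran from 0.880 to 5.67 on control diet and from 0.526 to 15.5 with Pio, the last value being mouse 13, with 1.94 the next highest. Since it joins genes already tested, the ratio is a description.

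Of the 5 calls, those of Npas2 and Cry1 were made in 40 of 40 fits that each left out 1 mouse. The Arntl call was made in 33 of 40 fits: it was lost without WT control mouse 832 (log2 fold change -1.11), 833 (-1.17) or 834 (-1.21) and without WT Pio mouse 841 (-1.15), 842 (-1.15), 843 (-1.28) or 845 (-1.22), with adjusted p-values up to 0.0875. The Per3 call was made in 33 of 40: it was lost without WT control mouse 831 (1.58), 832 (1.49), 833 (1.72) or 834 (1.54) and without WT Pio mouse 842 (1.69), 844 (1.67) or 845 (1.63). That of Nr1d2 was made in 34 of 40, being lost without WT control mouse 831 (0.56), 832 (0.59), 833 (0.59) or 834 (0.64) and without WT Pio mouse 844 (0.58) or 845 (0.55). Without KO Pio mouse 13, which is in neither group, all 5 were called, beside 15.5% of all genes, with adjusted p-values from 0.000208 for Cry1 to 0.00698 for Arntl. Without the low-count filter 2 of the 5 were called, Npas2 and Cry1, and the calls of Arntl, Per3 and Nr1d2 ended. DESeq2 called the same 5 genes, and limma these and Per2 (0.92, adjusted p = 0.00845), beside 3095 of all 12942 genes called by limma. Genes listed as adipocyte markers also differed with Pio in WT mice, on both diets: Adipoq, Plin1, Lep and Retn, of which 1 of 4 passed the filter. They summed to 0.0372 to 0.181 CPM in WT control livers, with Lep at 0 in all 5, and to 2.44 to 4.84 CPM in WT Pio livers. The sums were 0.06 to 0.304 CPM in WT HFD livers and 0.318 to 2.31 CPM in WT HFD-Pio livers, a comparison in which 0 clock members were called. The study reports that Pio raised other adipogenic genes in livers of WT but not KO mice on this diet. Cells and expression cannot be told apart in such low sums. The part of these genes in the clock result was not tested.

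Some transcription factors next to the core loop moved in the same comparison. The list held 11 accessory and output factors, of which 10 were tested; Hlf and Ciart were called higher and Nfil3 lower with Pio in WT mice. Ciart, which encodes the CHRONO repressor of the activator pair, rose from 3.01 ± 1.72 to 12.1 ± 3.05 CPM (log2 fold change 2.01, SE 0.48, adjusted p = 0.0133). Hlf, a PAR bZIP activator of D-box genes, rose from 38.5 ± 17.2 to 80.2 ± 31.1 CPM (log2 fold change 1.06, adjusted p = 0.0307). Nfil3, which represses through the same D-box, fell from 30.7 ± 2.52 to 16.7 ± 4.99 CPM (log2 fold change -0.87, adjusted p = 0.0226). The other PAR bZIP genes missed the threshold: Dbp was at 7.58 ± 7.17 and 38.9 ± 5.5 CPM (adjusted p = 0.0684) and Tef at 73.6 ± 33.3 and 131 ± 14.3 CPM (adjusted p = 0.0890). Dbp in the lowest Pio mouse, at 33.1 CPM, was above that in the highest control mouse, at 20.2 CPM.

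Genes that follow systemic cues of the clock were read beside it. Of 4 glucocorticoid-responsive genes, Sgk1, a kinase gene, was called lower in WT Pio mice, at 9.31 ± 1.59 against 22.1 ± 13.6 CPM (log2 fold change -1.25, adjusted p = 0.00433). Fkbp5, Tsc22d3 and Zbtb16 were not called in that comparison. None of 7 heat- and cold-responsive genes was called there. In KO mice, Pio against control diet called Tsc22d3 lower (-0.95, adjusted p = 0.0304), the heat shock genes Hspa8 (-0.76, adjusted p = 0.0487) and Hsph1 (-0.92, adjusted p = 0.0148) lower, and the cold-inducible Cirbp higher (1.01, adjusted p = 0.0305). None of these 4 was called without KO Pio mouse 13, where the values were -0.79 (adjusted p = 0.208) for Tsc22d3, -0.50 (adjusted p = 0.261) for Hspa8, -0.95 (adjusted p = 0.0511) for Hsph1 and 0.36 (adjusted p = 0.574) for Cirbp. Cirbp was at 65.9 CPM in mouse 13 and at 14.1 to 20.6 CPM in the other 4 KO Pio mice, and Hspa8 at 42.6 CPM against 160 to 235. Mouse 13 had the lowest summed level of both lists among KO livers, 163 CPM for the glucocorticoid list against 278 to 523 and 239 CPM for the temperature list against 287 to 606.

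On the HFD, the WT clock genes did not pass the test in any comparison. For HFD-Pio against HFD, 0 of 10 members were called and 3 had an unadjusted p under 0.05, beside 1.08% of all genes called. Without KO Pio mouse 13, which is in neither group, 0 members were called, beside 11.6% of all genes. In that fit 6 members had an unadjusted p under 0.05: Cry1, Per1, Nr1d2, Npas2, Arntl and Cry2. Arntl was at 20.9, 15.1, 19.7, 12.7 and 10.7 CPM in HFD mice and at 9.85, 8.08, 11.9, 7.82 and 9.97 CPM in HFD-Pio mice, with 1 Pio mouse above the lowest HFD mouse. The log2 fold change of -0.73 (SE 0.34) had an adjusted p of 0.279. Npas2 was at 4.46 ± 2.79 and 2.13 ± 0.870 CPM, Cry1 at 9.42 ± 2.65 and 6.28 ± 1.37 CPM, and Per3 at 17.2 ± 11.2 and 25.9 ± 6.07 CPM. Per1 was at 129 ± 112 CPM in HFD mice, a mean set by mouse 829 at 328 CPM, while the others lay between 70.6 and 87.6, and at 73.3 ± 8.07 CPM in HFD-Pio mice.

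Feeding the HFD instead of the control diet to WT mice left 0 of 10 members called and 2 with an unadjusted p under 0.05, beside 1.31% of all genes called. Without KO Pio mouse 13 the counts of members were again 0 and 2, beside 6.56% of all genes called. Arntl was at 20.8 ± 5.22 CPM on control diet and 15.8 ± 4.39 CPM on HFD, Npas2 at 9.14 ± 5.94 and 4.46 ± 2.79 CPM, and Nr1d1 at 180 ± 73.3 and 296 ± 117 CPM. Of the accessory factors, Hlf was called higher on HFD (1.14, adjusted p = 0.0353), and Sgk1 was called lower (-1.07, adjusted p = 0.0276). These comparisons share control mice with Pio against control.

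Under Pio, WT mice on HFD and on control diet also had 0 of 10 members called and 1 with an unadjusted p under 0.05, beside 1.22% of all genes. Without KO Pio mouse 13 the counts of members were 0 and 2, beside 8.68% of all genes called. Cry1 was at 6.28 ± 1.37 CPM in HFD-Pio against 3.68 ± 1.26 CPM in Pio mice (log2 fold change 0.76, adjusted p = 0.204). Per3 did not overlap between those groups, with 15.4 to 30.2 CPM in HFD-Pio and 31.5 to 39.4 CPM in Pio mice, but was not called (-0.45, adjusted p = 0.719). Nfil3 was called higher in HFD-Pio than in Pio mice (0.96, adjusted p = 0.0230).

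The difference of the Pio effect between the diets was tested directly in WT mice: 0 of 10 members were called and 2 had an unadjusted p under 0.05, beside 0.0773% of all genes called. Without KO Pio mouse 13 the counts of members were 0 and 3, beside 5.16% of all genes called. The differences of log2 fold change, HFD minus control diet, were 0.50 (SE 0.47) for Arntl, 1.05 (SE 0.65) for Npas2, 0.95 (SE 0.41, adjusted p = 0.341) for Cry1 and -1.08 (SE 0.65) for Per3. With standard errors of this size, the Pio effects on Arntl and Npas2 in the 2 diets could not be told apart. Limma called 1 member, Per2 (-1.13, adjusted p = 0.0459), where edgeR gave -1.28 (adjusted p = 0.270). Limma also called 1378 of all 12942 genes in this comparison, so 1 call among 10 members is near its own background share.

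**Figure D2:**
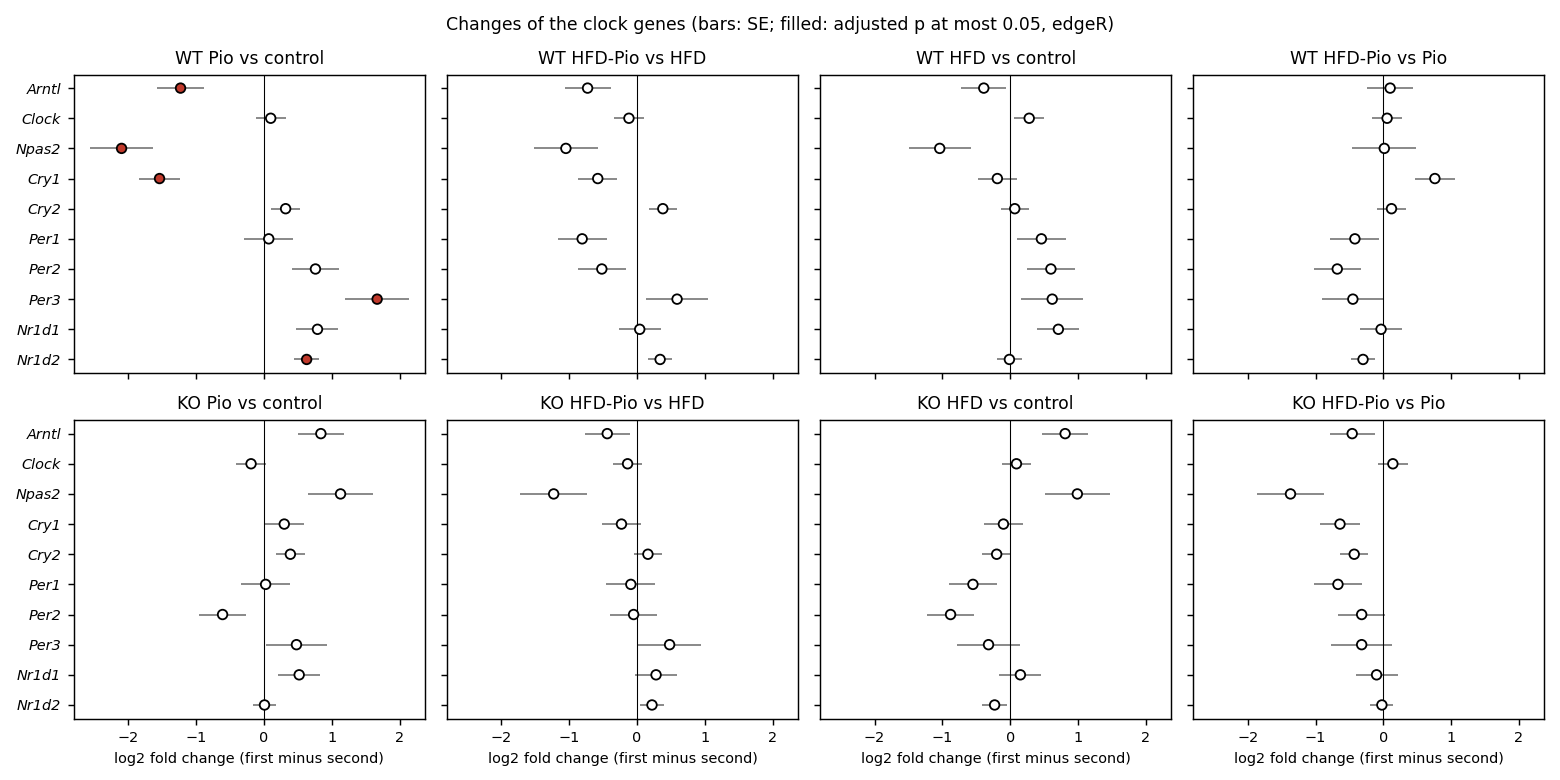
Log2 fold change (x axis, first group minus second) of each clock gene (y axis) in 8 two-group comparisons within WT (top) and KO (bottom) mice, as points with standard errors. Filled points have an adjusted p of at most 0.05 in edgeR; they appear only in WT Pio vs control, where Npas2 is lowest at -2.10 and Per3 highest at 1.67.

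In KO livers edgeR called no member in any of the 4 two-group comparisons. For Pio against control diet, 0 of 10 members were called and 2 had an unadjusted p under 0.05, although 9.01% of all genes were called; without KO Pio mouse 13, 66 genes and 0 members were called. Arntl was at 4.72, 10.7, 5.73, 5.93 and 11.6 CPM in KO control mice and at 19.0, 20.7, 4.69, 11.9 and 13.0 CPM in KO Pio mice, where 4.69 is mouse 13. The other 4 Pio mice lay above all control mice. The log2 fold change was 0.84 (SE 0.34, adjusted p = 0.101) with mouse 13 and 1.07 (SE 0.33, adjusted p = 0.137) without it. Npas2 was at 1.22 ± 0.383 CPM in KO control and 2.67 ± 1.00 CPM in KO Pio mice (1.13, adjusted p = 0.121; 1.02 and 0.493 without mouse 13). Per2 was at 51.8, 41.3, 54.7, 43.2 and 25.0 CPM in control and at 15.6, 11.7, 63.8, 29.0 and 21.4 CPM in Pio mice, with mouse 13 at 63.8. Its log2 fold change went from -0.61 (adjusted p = 0.250) to -1.13 (adjusted p = 0.0995) without that mouse.

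The sign of the KO values turned on mouse 13 for several repressors. The log2 fold change for Per3 was 0.48 with it and -0.28 without it, that for Cry1 0.30 and -0.036, and that for Per1 0.025 and -0.60; none was called either way. The limma test with sample quality weights, which the study names as its own, gives mice that stand apart less weight, and it called 3 members in KO Pio against control: Arntl (1.07, adjusted p = 0.00812), Per1 (-0.59, adjusted p = 0.0204) and Per2 (-1.13, adjusted p = 0.00120). Among the alternative tests, limma included, the most genes called in that comparison was 1427 of 12942, by DESeq2.

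The remaining KO comparisons also had no calls with edgeR. For HFD-Pio against HFD, 0 of 10 members and 0.0155% of all genes were called, and 1 member, Npas2, had an unadjusted p under 0.05. Npas2 was at 2.42 ± 2.24 CPM in KO HFD mice, a mean raised by mouse 9 at 6.41 CPM beside 1.16 to 1.67 in the others, and at 1.03 ± 0.315 CPM in HFD-Pio mice. For HFD against control diet, 0 of 10 members and 0.185% of all genes were called, with 3 members at an unadjusted p under 0.05; Per2 was at 43.2 ± 11.6 and 23.5 ± 5.93 CPM (-0.88, adjusted p = 0.793), and limma called it (-0.80, adjusted p = 0.0130). Limma called 542 of all 12942 genes in that comparison. For HFD-Pio against Pio, 0 of 10 members and 4.96% of all genes were called, with 3 members at an unadjusted p under 0.05; without mouse 13 the counts were 0 members and 0.0927% of all genes. There Npas2 did not overlap, with 0.687 to 1.34 CPM in HFD-Pio and 1.46 to 3.53 CPM in Pio mice (-1.37, adjusted p = 0.0766, or -1.25 and 0.730 without mouse 13). DESeq2 called it (-1.39, adjusted p = 0.0447), as did edgeR without KO HFD mouse 9 (-1.38, adjusted p = 0.0495), KO Pio mouse 14 (-1.52, adjusted p = 0.0358) or KO Pio mouse 15 (-1.49, adjusted p = 0.0442). For the difference of the Pio effect between diets in KO mice, 0 of 10 members were called, 2 had an unadjusted p under 0.05, and 0% of all genes, or 0 with 1562 at an unadjusted p under 0.05, were called by edgeR, against 52 by limma and 0 by DESeq2. Without mouse 13 no member was called by edgeR either, with Arntl at -1.52 (SE 0.45, adjusted p = 0.767) and Npas2 at -2.27 (SE 0.72, adjusted p = 0.812).

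Groups that did not overlap were counted over all genes as the background for these statements. In WT mice, 3 members did not overlap between Pio and control (Arntl, Cry1 and Per3), beside 7.53% of all genes; 0 between HFD-Pio and HFD, beside 7.12%; 0 between HFD and control, beside 3.05%; and 1 between HFD-Pio and Pio (Per3), beside 6.49%. In KO mice the counts were 0 for Pio against control, beside 3.7% of all genes, 0 for HFD-Pio against HFD, beside 0.61%, 0 for HFD against control, beside 3.04%, and 1 for HFD-Pio against Pio (Npas2), beside 2.43%. A count of 1 among 10 members is near the background share and is no result about the clock genes.

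Whether the difference between Pio and control mice in the clock genes was unlike in the 2 genotypes was tested as an interaction on the control diet. Here 3 of 10 members were called, beside 7.87% of all genes, and 5 had an unadjusted p under 0.05. The 3 were more positive in KO than in WT mice, beside 5.38% of all genes called in that direction, and 0 members were called in the other, beside 2.49%. For Arntl the KO effect exceeded the WT effect by 2.07 (SE 0.48, adjusted p = 0.00957), the effects being 0.84 in KO and -1.23 in WT mice. For Npas2 the difference was 3.23 (SE 0.67, adjusted p = 0.00487), from effects of 1.13 and -2.10, and for Cry1 it was 1.84 (SE 0.41, adjusted p = 0.00765), from 0.30 and -1.54. Each of the 3 was called in 40 of 40 fits that left out 1 mouse. The KO control mice began lower: Arntl was at 7.75 ± 3.17 CPM there, near the 8.86 ± 2.21 CPM of WT Pio mice, and Npas2 at 1.22 ± 0.383 CPM. Genotype, count table and hour of collection cannot be told apart in such levels.

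Per2 and Per3 joined the interaction when mouse 13 was left out. Without it 5 members were called, beside 5.7% of all genes. The differences were then -1.92 (SE 0.44, adjusted p = 0.00847) for Per2 and -1.96 (SE 0.59, adjusted p = 0.0419) for Per3, against -1.37 (adjusted p = 0.0712) and -1.19 (adjusted p = 0.229) with it. Per2 was also called without WT HFD mouse 829 (-1.37, adjusted p = 0.0455) or WT control mouse 831 (-1.59, adjusted p = 0.0479), and Nr1d2 without WT control mouse 835 (-0.80, adjusted p = 0.0346). With limma 6 members were called, these 5 and Nr1d2 (-0.62, adjusted p = 0.0372), beside 1998 of all 12942 genes. Among the accessory factors Ciart was called (-2.62, SE 0.67, adjusted p = 0.0164), and among the glucocorticoid-responsive genes Sgk1 (1.28, adjusted p = 0.0284). Both were also called without mouse 13, at -2.42 (adjusted p = 0.0280) and 1.44 (adjusted p = 0.0156).

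On the HFD and for the diet itself, no member's effect was called as different between genotypes. For the Pio effect on HFD, 0 of 10 members had even an unadjusted p under 0.05, beside 0.0927% of all genes called; the difference for Arntl was 0.30 (SE 0.47) and that for Npas2 -0.18 (SE 0.66). For the HFD effect without Pio, 0 members were called, beside 0.0618% of all genes, and 3 had an unadjusted p under 0.05: Npas2 at 2.02 (adjusted p = 0.243), Per2 at -1.47 (adjusted p = 0.263) and Arntl at 1.20 (adjusted p = 0.369). Without mouse 13 the counts of members were 0 and 4, beside 1.05% of all genes called. Limma called Per2 there (-1.36, adjusted p = 0.0419), beside 185 of all 12942 genes. For the HFD effect with Pio, 0 members were called, beside 0.0155% of all genes, with 2 at an unadjusted p under 0.05; Cry1 at -1.40 had an adjusted p of 0.131 and was called only without KO Pio mouse 11 (-1.51, adjusted p = 0.0484), while without mouse 13 it was at -1.04 (adjusted p = 0.319). In comparisons where edgeR called 0 members, DESeq2 and limma made no calls of members beyond those named here.

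The phase relation of activators and repressors was read from mouse to mouse. For each gene, the group mean of log2 CPM was subtracted, and the deviations were correlated over the 20 mice of a genotype, so that differences between diets play no part. Of the 45 pairs in each genotype, 6 in WT and 12 in KO mice had an adjusted p of at most 0.05 for both Pearson's r and Spearman's rho, by permutation of mice within groups and adjusted over 90 relations. Of the 21 pairs of an activator (Arntl, Clock, Npas2) with a repressor, r was negative in 12 in WT mice, with a median of -0.14, and in 19 in KO mice, with a median of -0.50. Without KO Pio mouse 13, 17 of 21 were negative, with a median of -0.38, and 9 pairs in all passed in KO mice. In WT mice Clock had a positive r with every repressor, from 0.0086 for Cry1 to 0.47 for Per1. Arntl and Npas2 had a positive r with Cry1 (0.51 and 0.62) and a negative r with every other repressor. In KO mice Clock had a negative r with every repressor, from -0.14 for Nr1d1 to -0.92 for Per1. Without mouse 13, r of Clock was positive with Cry1 (0.24) and Nr1d1 (0.13) and negative with the others. Pairs of 2 repressors had a median r of 0.34 in WT mice, 0.51 in KO mice and 0.15 in KO mice without mouse 13.

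Within WT mice the activators Arntl and Npas2 varied together, with r = 0.80 and rho = 0.78 (permutation, adjusted p = 0.00180 and 0.00690). The pair passed in 20 of 20 fits that left out 1 mouse, with r from 0.75 to 0.86. Npas2 and Per3 varied oppositely, with r = -0.76 and rho = -0.63 (permutation, adjusted p = 0.0136 and 0.0367), and r was -0.67 without WT control mouse 835; this pair passed in 11 of 20 fits. Per1 and Per2 had r = 0.85, Per3 and Nr1d2 r = 0.74, Per3 and Nr1d1 r = 0.72 and Cry2 and Nr1d2 r = 0.69, the last falling to 0.54 without mouse 835. Per1 with Per2 and Per3 with Nr1d2 passed in 19 of 20 fits each, Cry2 with Nr1d2 in 14 and Per3 with Nr1d1 in 13. When the 2 mice farthest from the median of the first gene were left out, 0 WT pairs passed both criteria. For Arntl and Npas2, r was then 0.67 (permutation, adjusted p = 0.0968), so the WT relations rest in part on those mice. Arntl and Per3 had r = -0.62 in WT mice, which did not pass (permutation, adjusted p = 0.0594).

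Within KO mice Arntl and Per3 varied oppositely most closely, with r = -0.94 and rho = -0.85 (permutation, adjusted p = 0.000900 for each). The value was -0.92 without mouse 13 and -0.87 without the 2 mice farthest from the median (adjusted p = 0.00405), and the pair passed in 20 of 20 fits. KO HFD mouse 9 lay at one end, with 28.5 CPM of Arntl and 4.60 of Per3, and mouse 13 at the other, with 4.69 and 72.7. Arntl and Per2 had r = -0.81 (-0.71 without mouse 13), and Per2 and Per3 had r = 0.91 (0.85 without mouse 13); both passed in 20 of 20 fits. Arntl and Npas2 had r = 0.60 over 20 mice and did not pass, but r = 0.88 and rho = 0.71 without mouse 13 (permutation, adjusted p = 0.00144 and 0.00750). Npas2 and Per3 went likewise from -0.57 to -0.90. Arntl and Clock, at r = 0.66, no longer passed without mouse 13 (0.57) or without KO HFD mouse 9 (0.73).

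The Arntl deviations of KO mice left a gap between 0.074 and 0.56 on the log2 scale, with 7 mice above it and 13 below. On each side of the gap, r of Arntl and Per3 was -0.79 above and -0.89 below, or -0.59 in the 12 mice below without mouse 13. For Arntl and Npas2 it was 0.92 above and -0.68 below, or -0.27 without mouse 13, so that relation lies mostly between the sides of the gap and in mouse 9. For Per2 it was -0.32 above and -0.36 in the 12 below. The sides were drawn after the values were seen, and these figures are a description.

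**Figure D3:**
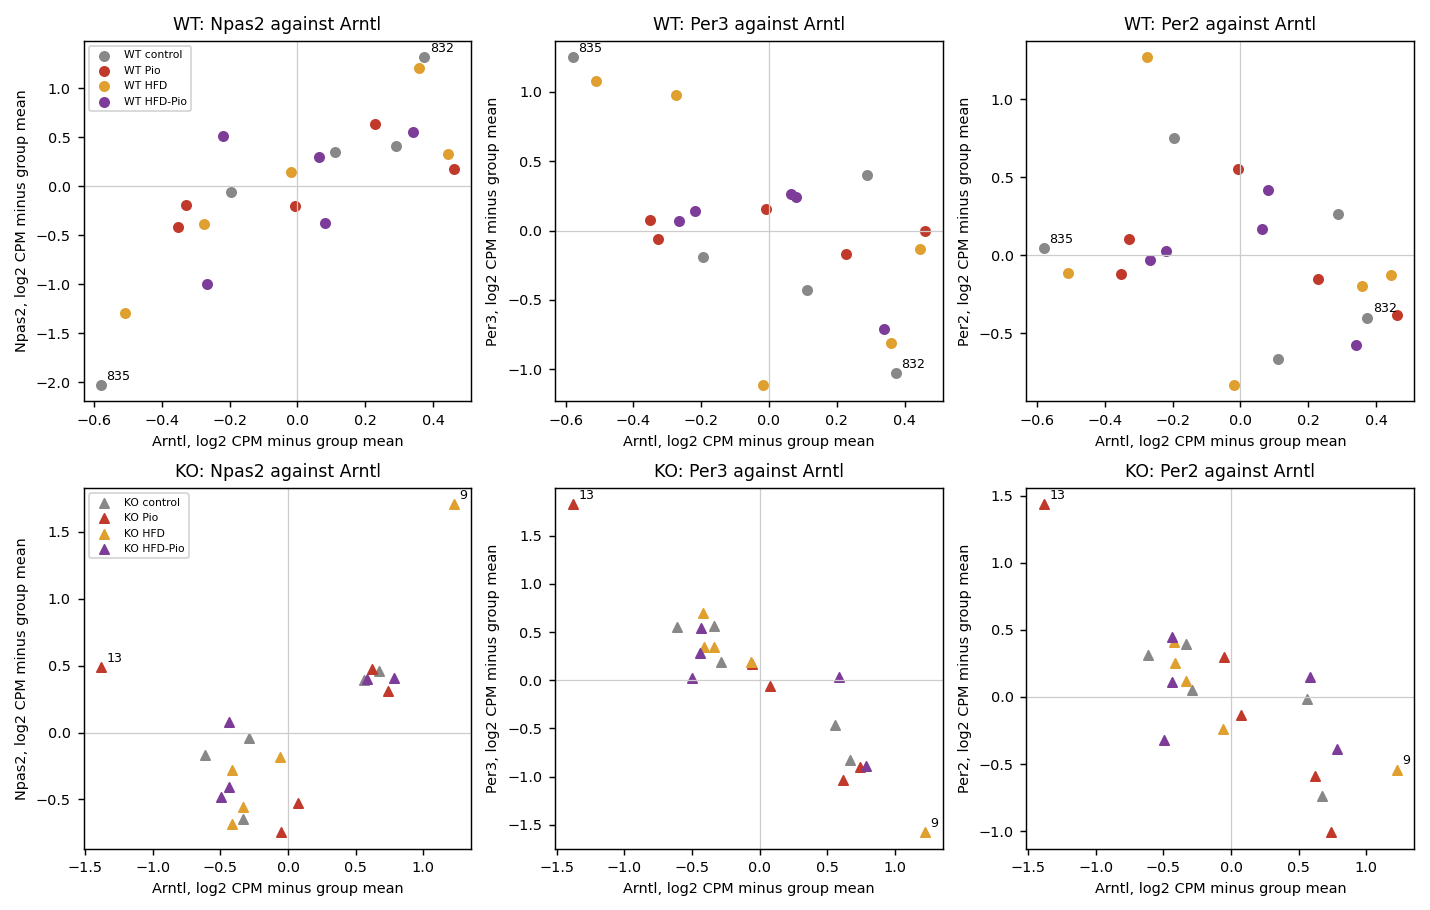
Deviation of Npas2, Per3 and Per2 (y axis) against that of Arntl (x axis), each as log2 CPM minus the group mean, with 1 point per mouse for WT (top) and KO (bottom) livers and colours for diet groups; mice 832, 835, 9 and 13 are numbered. Per3 falls as Arntl rises in both rows (r = -0.62 in WT, which did not pass, and -0.94 in KO), and mouse 13 lies apart from the other KO mice for Npas2.

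**Figure D4:**
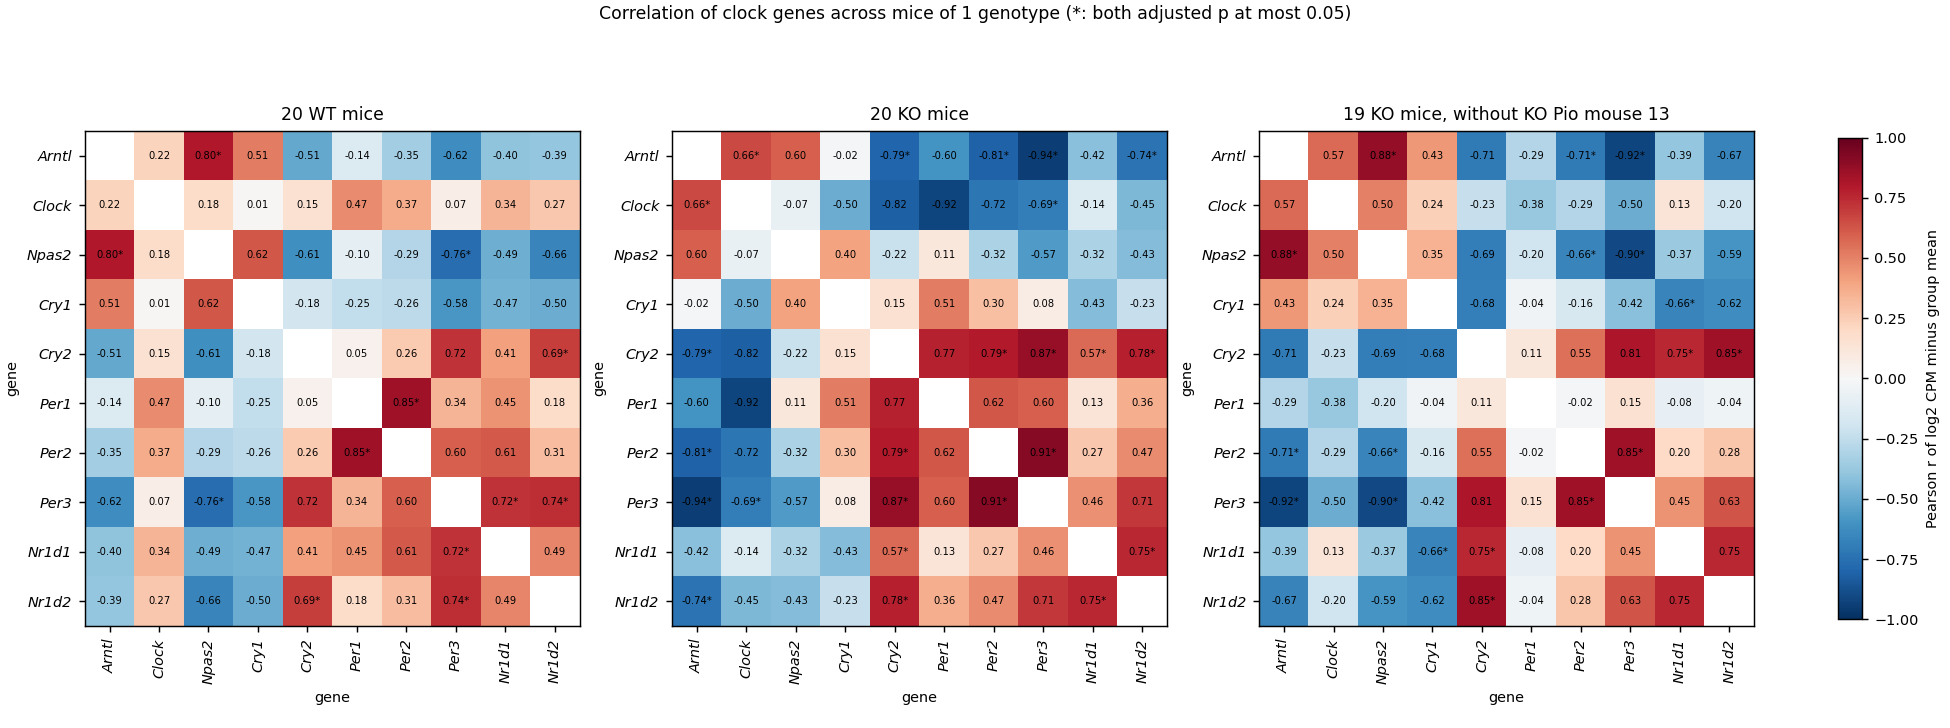
Pearson r of every pair of clock genes across 20 WT mice, 20 KO mice and 19 KO mice without KO Pio mouse 13, from deviations of log2 CPM from group means; colour runs from -1 (blue) to 1 (red) and asterisks mark pairs that passed for both r and rho. The row of Arntl is blue against Per2, Per3, Cry2 and the Nr1d genes and red against Npas2 in each panel, while that of Per1 against Clock changes from -0.92 to -0.38 without mouse 13.

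Outside the 10 members, the genes whose mouse-to-mouse pattern was most like that of Arntl were sought among 9272 tested genes whose mean level reached 5 CPM. They were ranked by the Spearman correlation nearer to 0 of the WT and KO values. Among the closest were Leo1 (0.66 in WT, 0.63 in KO), Slc7a7 (0.60, 0.61), Rars (0.60, 0.58) and Chka (0.59, 0.57). The most opposite were Tef (-0.75, -0.66), Dbp (-0.66, -0.79), Marveld1 (-0.62, -0.62), Tm2d2 (-0.60, -0.66) and Usp2 (-0.60, -0.66). Tef and Dbp are the PAR bZIP output genes described above and belong to the accessory list. That list was chosen with earlier results of these data known, so their place here is a description. Among the members Per3 had -0.53 in WT and -0.85 in KO mice on the same scale, and 28 non-members were more extreme.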

How the data were processed

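Whole-liver RNA was poly-A selected, primed with random hexamers and sequenced, and the authors aligned reads with STAR 2.0.4b to the Ensembl 76 GRCm38 assembly and deposited raw counts of uniquely aligned, unambiguous reads per gene from featureCounts 1.4.5, 1 table for WT and 1 for KO mice. The tables were joined by gene ID, and 355 rRNA genes were removed, leaving 40239. The 12942 genes that reached 1 CPM in 5 or more of 40 mice were fitted in edgeR 4.0.16 (R 4.3.3; TMM, robust quasi-likelihood, 8 group means), with Benjamini-Hochberg adjustment within each of 14 comparisons. DESeq2 1.42.0 and limma 3.58.1 (voomWithQualityWeights) were alternatives, with RLE scaling, no filter, each genotype alone and each mouse left out. The edgeR, DESeq2 and limma fits, for WT Pio against control, and the correlations of centred pairs were tested on simulated data. Those data held no mouse that stood apart. Correlations were taken on log2 CPM (prior count 2), with 100000 permutations. Exon lengths and overlaps came from GENCODE M21, motif windows from RefSeq, both on GRCm38. Groups came from the sample titles. Members and gene lists were chosen with earlier results of these data known. Some results on genes outside the 10 members are not reported here. Every member is named with its levels; called members are given with their fold changes, SE and adjusted p and, for two-group comparisons, with the value of each mouse. Depth was 15788242 to 49857017 counts per library. The SEs come from edgeR fits that include the spread between mice, and the SDs are between mice. The marker lists for endothelial, stellate, Kupffer, blood, muscle and pancreatic acinar cells gave sums of 72.4 to 209, 54.9 to 214, 102 to 510, 130 to 1550, 0 to 7.66 and 1.61 to 176 CPM over the 40 livers.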

Additional observations from a re-analysis of the deposited data

Results flagged for a closer look

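Within each group of 5 mice, the gap of the most extreme mouse to its nearest neighbour, over the range of the group, was compared with Dixon's 95% critical value of 0.71 for each of the 10 clock genes. Of 80 such groups, 12 passed it, where 1 in 20 would be about 4. The critical value assumes normally spread values, and the 10 genes were read in the same mice. These counts are therefore a description and no test against chance. KO Pio mouse 13 accounted for 6: Clock at 15.3 CPM (61.7 to 77.0 in the other 4), Cry1 at 19.8 (7.26 to 10.2), Cry2 at 92.2 (31.5 to 39.5), Per1 at 204 (48.9 to 62.0), Per3 at 72.7 (9.98 to 23.1) and Nr1d2 at 92.4 (60.2 to 65.8). KO HFD mouse 9 had Arntl at 28.5 CPM (9.07 to 11.6 in the other 4) and Npas2 at 6.41 (1.16 to 1.67). WT HFD mouse 829 had Per1 at 328 CPM (70.6 to 87.6) and Per2 at 96.9 (22.6 to 37.1). Per1 was at 195 CPM in WT Pio mouse 845 (63.5 to 96.0 in the others), and Per3 at 15.4 CPM in WT HFD-Pio mouse 838 (26.4 to 30.2).

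The effect of Pio on the control diet differed between KO and WT mice, by the interaction test in edgeR, for Arntl (difference of log2 fold changes 2.07), Npas2 (3.23) and Cry1 (1.84). The comparison without mouse 13 gave 2.29, 3.12 and 1.49, all with an adjusted p of at most 0.0157.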

How the results depend on the processing

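No paired analysis was possible because mice of different groups share no replicate number. The count of members called in WT Pio against control was 5, or 2 without the low-count filter (Npas2 and Cry1), and 2 to 5 over the fits that left out 1 mouse, the lowest without WT control mouse 832, 833 or 834 or WT Pio mouse 845. With limma's quality weights the count rose to 3 in KO Pio against control, to 1 in KO HFD against control, to 1 in the diet difference of the WT Pio effect, to 1 in the genotype difference of the HFD effect without Pio (Per2 in these last 3) and to 6 in that of the Pio effect on control diet, which ran from 3 to 5 when 1 mouse was left out. DESeq2 called 1 member, Npas2, in KO HFD-Pio against Pio, where leaving out 1 mouse gave 0 to 1, as it did for the HFD effect with Pio between genotypes. Pairs of members that passed numbered 20 in WT mice without centring on group means, 0 without the 2 mice farthest from the median and 3 to 10 with 1 mouse left out (3 without WT control mouse 832 or WT HFD-Pio mouse 838, 10 without WT Pio mouse 841); in KO mice they numbered 3 and 5 to 13 (5 without KO HFD mouse 9). The r of Arntl and Per1 in WT mice turned from -0.14 to 0.073 without centring and ran from -0.25 to 0.032 with 1 mouse left out; that of Arntl and Cry1 in KO mice turned from -0.023 to 0.034 without centring and 0.22 without the 2 farthest mice and ran from -0.26 to 0.43; that of Arntl and Nr1d1 in KO mice became 0.061 without the 2 farthest. Ranked by Pearson's r, 4 of the 10 genes most like Arntl were shared. In all genes, calls ran from 315 without a filter to 3095 with limma in WT Pio against control (506 in the reported fit; 212 without WT Pio mouse 845, 2011 without KO Pio mouse 13), and from 0 with KO mice fitted alone to 1427 with DESeq2 in KO Pio against control (1166; 66 without mouse 13, 2315 without KO Pio mouse 14). For WT HFD-Pio against HFD they ran from 70 to 1087 (140 reported), for WT HFD against control from 101 to 376 (170), for WT HFD-Pio against Pio from 86 to 2937 (158), for KO HFD-Pio against HFD from 0 to 8 (2), for KO HFD against control from 0 to 542 (24), for KO HFD-Pio against Pio from 0 to 1012 (642) and for the Pio effect on control diet between genotypes from 565 to 1998 (1018). For the other interactions they reached 1378, 52, 354, 185 and 975 with limma (10, 0, 12, 8 and 2 reported). With 1 mouse left out, they ran from 39 (without WT HFD-Pio mouse 837) to 1504 for WT HFD-Pio against HFD, from 58 (WT HFD mouse 828) to 849 for WT HFD against control, from 48 (WT Pio mouse 845) to 1123 for WT HFD-Pio against Pio and from 2 (KO control mouse 4) to 50 for KO HFD against control, each highest without KO Pio mouse 13. They ran from 0 to 5 (KO HFD mouse 6) for KO HFD-Pio against HFD, from 2 (KO HFD-Pio mouse 20) to 2027 (KO Pio mouse 11) for KO HFD-Pio against Pio and from 545 (WT Pio mouse 845) to 1977 (KO Pio mouse 11) for the Pio effect on control diet between genotypes. For the Pio effect between diets they ran from 0 to 668 (KO Pio mouse 13) in WT mice and were 0 in KO mice. Between genotypes they ran from 8 (WT HFD-Pio mouse 837) to 21 (KO Pio mouse 13) for the Pio effect on HFD, from 1 (WT HFD mouse 828) to 136 (KO Pio mouse 13) for the HFD effect without Pio and from 1 to 399 (KO Pio mouse 11) for that with Pio. The cause of these shifts was not tested. Npas2, with as few as 17 reads in a library, had the least precise values among the members.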
